A study of Mus musculus with 15 samples.

Results

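The 34 genes described here carry glucose into the cell, break it down to pyruvate, turn pyruvate into lactate, export lactate, or set how much pyruvate enters the mitochondrion. They were taken by symbol from a list drawn up for this pathway, and all 34 were found among the 51826 genes of the deposited tables. RNA was measured in 15 libraries of mammary tissue from 13 mice, in TPM, an abundance corrected for gene length whose total is fixed within each library. Trim24COE mice carry a Flag-tagged mouse Trim24 cDNA behind a floxed stop cassette, inserted with piggyBac, mapped in progeny of a single founder, and opened by MMTV-Cre, which drives Cre in the mammary epithelium. The metaplastic carcinosarcomas of this genotype came from mice 64, 567 and 897 (n = 3), and its carcinomas from mice 89, 273_5 and 3956 (n = 3). These classes are those of the labels. In the study's pathology records the readings of tumors 89, 567 and 3956 differ, since one pathologist called 89 and 3956 carcinosarcomas and 567 a spindle cell carcinoma. For every Trim24COE tumor but 3956 the records also list a class called from RNA-seq, which equals the label, so the classes may not be independent of these libraries. The controls were 4 mammary glands (mice 133, 392, 417_3 and 517_3) of age-matched mice that carry MMTV-Cre without the transgene. A further 3 tumors (219, FVB001 and FVB002), called non-TRIM24 tumors here, arose spontaneously in FVB or FVB/129 mice without the transgene and have an unknown genotype in the labels. The Trim24COE and MMTV-Cre mice were aging virgin females, the strain label is FVB for every library, and the ages of single tumor mice, which the study's records give, were not used here. All values below follow this order of mice.

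Glucose enters through carriers of the GLUT family and is trapped by hexokinases, split into triose phosphates after the phosphofructokinase step, and carried to pyruvate by a shared trunk of enzymes. Pyruvate then either enters the mitochondrion through pyruvate dehydrogenase, which the PDK kinases switch off, or becomes lactate through lactate dehydrogenase and leaves the cell with a proton through monocarboxylate transporters. Most steps have several isozymes encoded by separate genes, and proliferating cells and tumors are known for high use of the branch to lactate even where oxygen is present. The fat pad that surrounds mammary epithelium takes up glucose through the insulin-responsive carrier GLUT4.

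The libraries had between 21060 and 34209 genes above 0, and their depth is unknown from TPM. Batch 2 of the sequencing held the 3 non-TRIM24 tumors and a second library each of tumor 3956 and gland 133, and batch 1 held every other library. Trim24 itself was measured at 10.6, 12 and 14.5 TPM in the carcinosarcomas, 24.1, 13.9 and 16.4 in the carcinomas and 14.5, 18.4, 22.4 and 15.9 in the glands, so its RNA did not separate the groups in these libraries (log2 difference -0.24, SE 0.26, adjusted p = 0.557, limma) and the group names are those of the labels. The study itself reports higher Trim24 RNA in tumors of this genotype than in Cre-only glands by qRT-PCR. By tissue staining it also reports overexpressed FLAG and TRIM24 protein. The summed TPM of 8 adipocyte markers was 121 to 1276 in the 6 Trim24COE tumors, 25493, 38048, 1763 and 1953 in the 4 glands, and 179, 54243 and 27602 in the non-TRIM24 tumors, so every gland held more adipocyte RNA than every Trim24COE tumor. Adipocyte RNA and group therefore cannot be told apart between these tumors and the glands. Differences given below with an adipocyte score as covariate do not separate the effects of fat and group. The summed TPM of 6 macrophage and monocyte markers was 1158 to 5274 in the Trim24COE tumors and 372 to 817 in the glands. In bulk tissue, a smaller number of cells of a type and less RNA per cell cannot be told apart.

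All 6 Trim24COE tumors carried more summed RNA of the 34 members than any control gland, a sum weighted to the most abundant members. The summed TPM of the 34 members made up 0.872%, 0.823% and 1.21% of all TPM in the carcinosarcomas and 0.92%, 0.771% and 0.804% in the carcinomas, against 0.503%, 0.417%, 0.403% and 0.393% in the glands. In the fit across all genes (limma on log2(TPM + 1), adjusted p under 0.05 over 15196 genes), 10 of the 34 members were called higher in the tumors and 3 lower, and 21 did not pass. Of all genes tested, 7.96% were called higher and 9.13% lower. The median log2 difference was 0.411 over the members and -0.0369 over all genes tested. For 10 members every tumor lay above every gland, and for 2 every tumor lay below, against 7.39% and 7.20% of all genes tested. Sorted by role, the calls fell mostly on the trunk from aldolase to pyruvate kinase, where 6 of 9 members were higher, and on lactate, where 2 of 4 were higher.

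**Figure D1:**
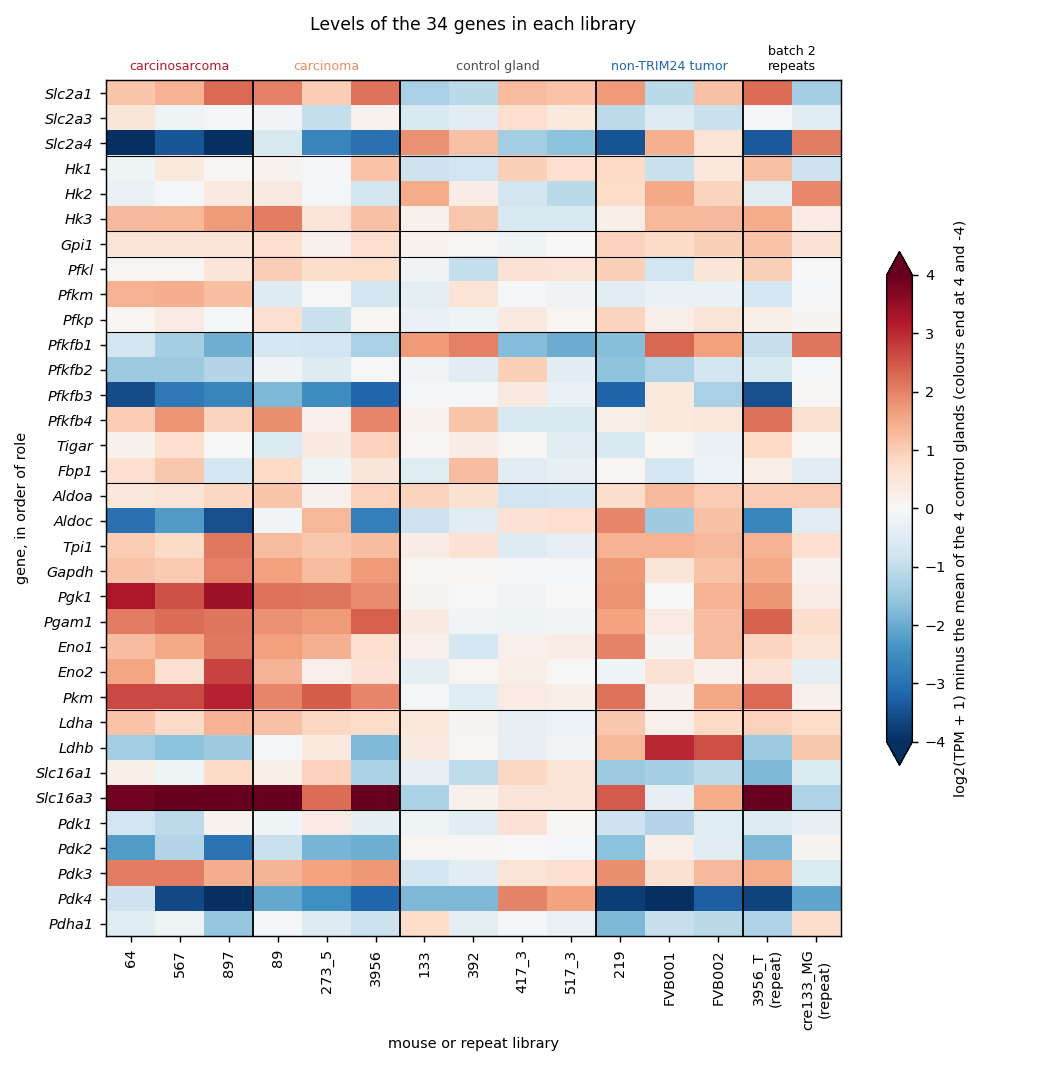
Log2(TPM + 1) of each of the 34 members in each of the 15 libraries, as the difference from the mean of the 4 control glands, with genes in rows by role, libraries in columns by group, red for higher and blue for lower. Pgk1, Pkm, Pgam1 and Slc16a3 are red in all 6 Trim24COE tumors, Pfkfb3 and Pdk2 are blue in all 6, and the repeat libraries look like the first libraries of mice 3956 and 133.

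Among promoters, 3 are printed because they belong to a trunk enzyme, the lactate exporter and lactate dehydrogenase A, which were all called higher in the tumors. Each window holds the 250 bases before the first start that RefSeq lists for the gene in GRCm38.p6, written 5′ to 3′. Capitals mark ACGTG, or CACGT where it lies on the other strand, which is the core that hypoxia-inducible factors recognize and which also lies within the E-box CACGTG bound by MYC and related factors. Overlapping matches on both strands were each counted.
Pgk1 chrX:106186850-106187099 plus strand: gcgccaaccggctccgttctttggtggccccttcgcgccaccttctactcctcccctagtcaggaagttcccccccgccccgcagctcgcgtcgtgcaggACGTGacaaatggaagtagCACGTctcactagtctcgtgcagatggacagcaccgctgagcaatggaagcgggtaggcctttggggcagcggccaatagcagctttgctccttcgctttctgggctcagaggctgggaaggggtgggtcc
Slc16a3 chr11:120948817-120949066 plus strand: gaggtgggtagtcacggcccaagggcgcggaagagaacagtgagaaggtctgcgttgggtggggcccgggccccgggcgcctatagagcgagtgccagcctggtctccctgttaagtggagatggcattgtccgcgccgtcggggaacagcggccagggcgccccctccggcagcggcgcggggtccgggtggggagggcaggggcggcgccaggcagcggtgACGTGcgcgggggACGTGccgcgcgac
Ldha chr7:46845554-46845803 plus strand: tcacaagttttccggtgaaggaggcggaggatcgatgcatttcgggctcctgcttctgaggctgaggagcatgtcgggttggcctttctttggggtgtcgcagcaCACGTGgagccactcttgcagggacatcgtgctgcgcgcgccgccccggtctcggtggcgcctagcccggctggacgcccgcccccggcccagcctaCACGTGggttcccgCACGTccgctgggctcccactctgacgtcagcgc
The Pgk1 window held 2 matches and lay upstream of the annotated gene. The Slc16a3 window held 2 matches and lay within the gene as GENCODE M21 annotates it, with 14 bases in an annotated exon. The Ldha window held 5 matches, including the palindrome CACGTG in which both strands match, and lay inside the annotated gene outside its exons. Of the 32 members with a promoter entry, 13 (40.6%) held at least 1 match, and 4477 of 27025 genes (16.6%) did. Slc2a3 and Slc2a4 had no entry. The windows of the trunk genes Tpi1, Gapdh, Eno1 and Pkm, also called higher, held 0 matches, and those of Pgam1, Hk3 and Pdk3 held 1 each. The 3 printed windows thus held the most matches among the members called higher. Pdk2 and Pfkfb3, which were lower in the tumors, held 2 and 1 matches. These are matches of letters, and binding of any factor was not measured.

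From triose phosphate to pyruvate, at least 1 gene of every step was called higher in the Trim24COE tumors. Phosphoglycerate kinase Pgk1 (ENSMUSG00000062070.12, chrX:106187100-106203699, plus strand), the first step of the pathway that makes ATP, was measured at 1303, 805 and 1445 TPM in the carcinosarcomas, 618, 602 and 505 in the carcinomas and 147, 139, 127 and 135 in the glands. The lowest tumor stood at more than any gland by several fold, and the carcinosarcomas stood above the carcinomas. On the log2(TPM + 1) scale the tumors were 5.89-fold higher (log2 difference 2.56, SE 0.31, adjusted p = 0.000645), and this call held in 20 of 20 alternatives. Pyruvate kinase Pkm (ENSMUSG00000032294.17, chr9:59656368-59679375, plus strand), the last step of the trunk, was at 1506, 1497 and 2033 TPM in carcinosarcomas, 929, 1275 and 934 in carcinomas and 227, 172, 299 and 279 in glands. The groups of tumors and glands did not overlap, and Pkm was 5.47-fold higher in tumors (log2 difference 2.45, SE 0.27, adjusted p = 0.00041). The table sums the isoforms of a gene, so the M1 and M2 forms of pyruvate kinase were not separated. Phosphoglycerate mutase Pgam1 (ENSMUSG00000011752.6, chr19:41911923-41918660, plus strand) was at 514, 597 and 559 TPM in carcinosarcomas, at 441, 409 and 655 in carcinomas and at 162, 116, 111 and 116 in glands. Every tumor exceeded every gland, with a mean of 529 ± 93.5 (SD, n = 6) against 126 ± 23.7 (SD, n = 4) TPM and a 4.16-fold difference (log2 difference 2.06, SE 0.20, adjusted p = 0.000245).

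Gapdh, the dehydrogenase that precedes Pgk1, was at 1025, 949 and 1848 TPM in the carcinosarcomas, 1448, 1105 and 1504 in the carcinomas and 488, 472, 441 and 445 in the glands. It was 2.77-fold higher in the tumors (log2 difference 1.47, SE 0.23, adjusted p = 0.0021), again without overlap, and a gene often used as a constant reference therefore differed between these groups. Triose phosphate isomerase Tpi1 was at 457, 389 and 993 TPM in carcinosarcomas, 547, 481 and 537 in carcinomas and 278, 337, 158 and 180.5 in glands and 2.37-fold higher (log2 difference 1.25, SE 0.30, adjusted p = 0.018). The Tpi1 call ended without gland 417_3 or 517_3 (adjusted p = 0.0548 and 0.0549) and under quantile normalization (adjusted p = 0.0713). The ubiquitous enolase Eno1 was at 728, 898 and 1347 TPM in carcinosarcomas, 969, 838 and 487 in carcinomas and 355, 191, 360.2 and 387 in glands. Its tumors were 2.69-fold higher and did not overlap the glands (log2 difference 1.43, SE 0.30, adjusted p = 0.0101), and with an adipocyte score as covariate the difference was 1.20 with an adjusted p of 0.0871. The other 3 members of the trunk did not pass. Aldolase A was 858 to 1655 TPM in tumors and 446 to 1417 in glands (log2 difference 0.67, SE 0.36, adjusted p = 0.226), and with the adipocyte score as covariate it passed, at 1.46 (adjusted p = 0.0221). Aldolase C, the form best known from brain, spanned 9.57 to 298 TPM in tumors and 66.4 to 190.2 in glands (log2 difference -1.72, SE 0.86, adjusted p = 0.193). The neuronal enolase Eno2 was at 5.68 to 36.3 TPM against 3.54 to 5.97 (log2 difference 1.18, SE 0.44, adjusted p = 0.0882). Without tumor 273_5, Aldoc (-2.32, adjusted p = 0.0299) and Eno2 (1.37, adjusted p = 0.0485) passed.

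Gapdh and Eno1 have near-identical copies in the genome, and reads can be divided between a gene and its copies. Transcripts of other genes that matched a member over at least 200 bases at 95% identity or more were found for 10 members, 100 in all, of which 86 belonged to Gapdh. Copies took 5.58% to 59.3% of the TPM summed over Gapdh and its copies, and 1.89% to 62.6% for Eno1. The copy Eno1b was at 612, 187 and 463 TPM in carcinosarcomas, 2.68, 155 and 364 in carcinomas and 94.3, 85.7, 1.37 and 1.44 in glands, so tumor 64 had a large part of its enolase reads there and tumor 89 almost none. Summed with its copies, Eno1 reached 1935, 1336 and 2319 TPM in the carcinosarcomas, 988, 1193 and 1302 in the carcinomas and 532, 284, 369.7 and 396 in the glands, and the tumor difference grew to 1.90 (adjusted p = 0.00165). For Gapdh the same sum gave 1.70 (adjusted p = 0.00273). Copies took at most 11.9% for Pgk1 and 11.5% for Pgam1, at most 25.4% for Ldhb, and at most 4.58% for the other 5 members with copies.

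**Figure D2:**
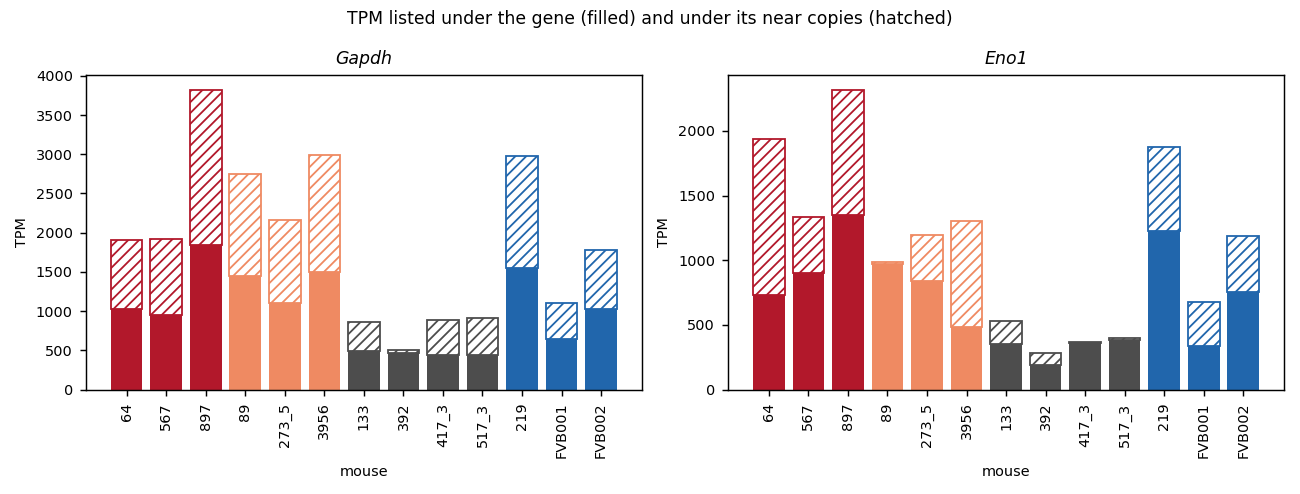
TPM listed under Gapdh and Eno1 (filled) and under their near copies (hatched, stacked on top) in each of the 13 mice, with carcinosarcomas in dark red, carcinomas in orange, glands in gray and non-TRIM24 tumors in blue. Copies of Eno1 take up to 62.6% of the stack, and the stacks of all 6 Trim24COE tumors stand above those of the 4 glands.

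The lactate branch held the member with the largest fitted difference between tumors and glands. Slc16a3 (ENSMUSG00000025161.16, chr11:120948480-120960868, plus strand), which encodes the lactate exporter MCT4, was at 73.9, 109.5 and 159.5 TPM in the carcinosarcomas and 112, 23 and 93.3 in the carcinomas, against 1.13, 4.78, 6.31 and 6.48 in the glands. The lowest tumor, 273_5, stood above the highest gland, and the tumors were 16.4-fold higher (log2 difference 4.03, SE 0.52, adjusted p = 0.00096). The other carrier, MCT1 (Slc16a1), which moves lactate in either direction, was at 30.9, 23.3 and 44.9 TPM in carcinosarcomas, 30.7, 50.6 and 10.2 in carcinomas and 20.5, 12.3, 47 and 38.4 in glands and its groups overlapped (log2 difference 0.12, SE 0.47, adjusted p = 0.89). Lactate dehydrogenase A (Ldha, ENSMUSG00000063229.15, chr7:46841475-46855627, plus strand), the form that favors making lactate, was at 1089, 839 and 1277 TPM in carcinosarcomas, 1109.7, 862 and 824 in carcinomas and 675, 532, 387 and 416 in glands. All tumors were above all glands (log2 difference 1.01, SE 0.23, adjusted p = 0.0133). Ldhb, the form that favors turning lactate back into pyruvate, was at 38.6, 32 and 37 TPM in carcinosarcomas, 96.4, 135 and 29 in carcinomas and 131, 107, 81.5 and 93.4 in glands. Tumors 64, 567, 897 and 3956 lay below every gland, and 89 and 273_5 lay within or above their range, so that the difference over all 6 did not pass (log2 difference -0.98, SE 0.43, adjusted p = 0.138). Without tumor 273_5 it did (-1.26, adjusted p = 0.0302).

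Among the glucose carriers, Slc2a4 was called lower and neither of the others passed. Slc2a1, which encodes the widely expressed GLUT1, was at 77.9, 95.3 and 178 TPM in the carcinosarcomas, 149, 71.6 and 164 in the carcinomas and 14, 16.3, 87.4 and 79.9 in the glands. Glands 133 and 392 were far below the tumors, whereas 417_3 and 517_3 lay among them, and the difference missed the threshold (log2 difference 1.65, SE 0.54, adjusted p = 0.0579). Leaving out gland 417_3 or 517_3 brought it past the threshold (adjusted p = 0.0338 and 0.0412). Slc2a4, which encodes GLUT4, was at 0.11, 1.98 and 0.34 TPM in carcinosarcomas, 19.4, 4.07 and 3.02 in carcinomas and 113, 71.7, 11.1 and 9.34 in glands. It was 9.12-fold lower in the tumors (log2 difference -3.19, SE 0.90, adjusted p = 0.0329), although tumor 89 exceeded glands 417_3 and 517_3. The adipocyte marker sum was also highest in glands 133 and 392 and, among tumors, in 89. With the adipocyte score as covariate the Slc2a4 difference was -0.88 (adjusted p = 0.356), and without mouse 64, 567, 897, 3956, 133 or 392 the adjusted p was 0.0509 to 0.0951. Because adipocyte RNA and group cannot be told apart here, its part in the Slc2a4 difference is not known. Slc2a3, the high-affinity GLUT3, was low everywhere, at 1.42 to 5.63 TPM in tumors and 2.09 to 6.46 in glands (log2 difference -0.11, SE 0.35, adjusted p = 0.861).

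Of the hexokinases only Hk3 passed. This form, known from myeloid cells, was at 5.15, 5.31 and 7.14 TPM in carcinosarcomas, 9.28, 2.54 and 4.61 in carcinomas and 1.84, 4.27, 0.61 and 0.61 in glands, and was 2.54-fold higher in tumors (log2 difference 1.34, SE 0.40, adjusted p = 0.041). Gland 392 lay among the tumors. The sum of 5 neutrophil markers was 281, 211 and 285 TPM in carcinosarcomas, 2025, 527 and 89.2 in carcinomas and 12.4, 12.5, 6.68 and 8.69 in glands. Tumor 89 had the highest neutrophil sum and the highest Hk3. Tumor 273_5 had the next highest sum and the lowest Hk3 of the tumors. The sum of macrophage and monocyte markers also lay higher in every tumor than in every gland, and the part of either sum in the Hk3 difference was not tested. The call ended when any mouse but 273_5 or 392 was left out (adjusted p 0.0572 to 0.12) and under trimmed mean scaling (0.0564). Hk1, the form of most tissues, was at 34.5 to 86.7 TPM in tumors and 21.2 to 75.1 in glands (log2 difference 0.25, SE 0.40, adjusted p = 0.707). Hk2, the form of insulin-responsive tissues, was at 20.6, 24 and 32.7 TPM in carcinosarcomas, 32.6, 23.9 and 14.8 in carcinomas and 72.7, 31.3, 14.8 and 11.5 in glands, with gland 133 above every tumor and glands 417_3 and 517_3 at or below the lowest (log2 difference -0.07, SE 0.45, adjusted p = 0.939). The isomerase Gpi1 was at 352, 345 and 339 TPM in carcinosarcomas, 371, 268 and 374 in carcinomas and 264, 245, 210.1 and 239 in glands. Every tumor lay above every gland, although tumor 273_5 and gland 133 were close, and the difference did not pass (log2 difference 0.51, SE 0.17, adjusted p = 0.0636) unless 273_5 was left out (adjusted p = 0.0415).

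At the committing step, the 3 phosphofructokinase subunits did not pass between all tumors and glands. The liver subunit Pfkl was at 70.8 to 135 TPM in tumors and 34.5 to 103 in glands (log2 difference 0.50, SE 0.32, adjusted p = 0.307), and the platelet subunit Pfkp at 21.8 to 66 and 33.3 to 53.4 (log2 difference 0.03, SE 0.29, adjusted p = 0.956). The muscle subunit Pfkm divided the tumor classes and is described with them. Among the bifunctional enzymes that make and remove fructose 2,6-bisphosphate, the activator of phosphofructokinase, Pfkfb3 stood out. The form encoded by Pfkfb3, whose kinase activity is by far the stronger, was at 6.55, 11.4 and 13.3 TPM in carcinosarcomas, 24.8, 15 and 8.83 in carcinomas and 84.6, 86, 114 and 72.3 in glands. Every tumor lay below every gland, and the tumors were 6.71-fold lower (log2 difference -2.75, SE 0.32, adjusted p = 0.000515) under 20 of 20 alternatives. With the adipocyte score as covariate the difference was -2.48 (adjusted p = 0.00809).

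The other regulators did not pass. Pfkfb1, the form of liver and muscle, was at 4.6, 2.69 and 1.44 TPM in carcinosarcomas, 4.71, 4.53 and 2.81 in carcinomas and 29.4, 37, 1.8 and 1.38 in glands, so glands 133 and 392 lay far above the tumors and 417_3 and 517_3 among or below them (log2 difference -1.13, SE 0.77, adjusted p = 0.334). Pfkfb2, the heart form, was at 1.97 to 7.19 TPM in tumors and 5.17 to 14.9 in glands (log2 difference -0.79, SE 0.40, adjusted p = 0.199). Pfkfb4, a form known from testis and from hypoxic cells, was at 7.8, 14.2 and 7.35 TPM in carcinosarcomas, 15.3, 4.17 and 16.3 in carcinomas and 3.94, 8.6, 1.91 and 1.88 in glands, with gland 392 inside the tumor range (log2 difference 1.28, SE 0.45, adjusted p = 0.071). It passed without tumor 273_5 (adjusted p = 0.0341) or without gland 392 (0.0353), and with the adipocyte score as covariate (1.98, adjusted p = 0.0432). Tigar, which removes fructose 2,6-bisphosphate, was at 1.74 to 6.56 TPM in tumors and 1.96 to 3.9 in glands (log2 difference 0.26, SE 0.31, adjusted p = 0.605). Fbp1, the gluconeogenic fructose bisphosphatase, stayed at or below 2.73 TPM in these 10 mice (log2 difference 0.36, SE 0.43, adjusted p = 0.598).

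At the entry to the mitochondrion, 2 kinases of pyruvate dehydrogenase moved in opposite directions. Pdk2, a broadly expressed kinase, was at 7.84, 17.6 and 4.37 TPM in carcinosarcomas, 21.5, 10.5 and 9.9 in carcinomas and 42.3, 42.2, 40.4 and 38.2 in glands, and was 3.59-fold lower in tumors (log2 difference -1.84, SE 0.36, adjusted p = 0.00711). The 4 glands lay close together and above every tumor. Pdk3 was at 35.4, 34.8 and 23.1 TPM in carcinosarcomas, 21.7, 25.6 and 28.2 in carcinomas and 4.3, 5.36, 11.8 and 12.6 in glands, 3.27-fold higher in tumors and without overlap (log2 difference 1.71, SE 0.31, adjusted p = 0.00491). With the adipocyte score as covariate the Pdk2 difference was -1.48 (adjusted p = 0.0774), and Pdk3 kept its call. Pdk4, a kinase induced by fasting and fatty acids, was at 62.4, 8.18 and 4.41 TPM in carcinosarcomas, 26.4, 19.4 and 11.6 in carcinomas and 31.5, 31.2, 449 and 339 in glands. Glands 417_3 and 517_3 were several fold above all other mice, and the difference missed the threshold (log2 difference -2.75, SE 0.89, adjusted p = 0.0559), but passed without gland 133 (adjusted p = 0.0399), gland 392 (0.0402) or tumor 64 (0.0421). With the adipocyte score as covariate the Pdk4 difference was -4.46 (adjusted p = 0.0185). Pdk1, the kinase most often tied to hypoxia, was at 7.71 to 21.4 TPM in tumors and 12.2 to 26 in glands (log2 difference -0.31, SE 0.32, adjusted p = 0.538). The catalytic subunit gene Pdha1 was at 48.8 to 137 and 112 to 244 TPM (log2 difference -0.61, SE 0.32, adjusted p = 0.209).

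**Figure D3:**
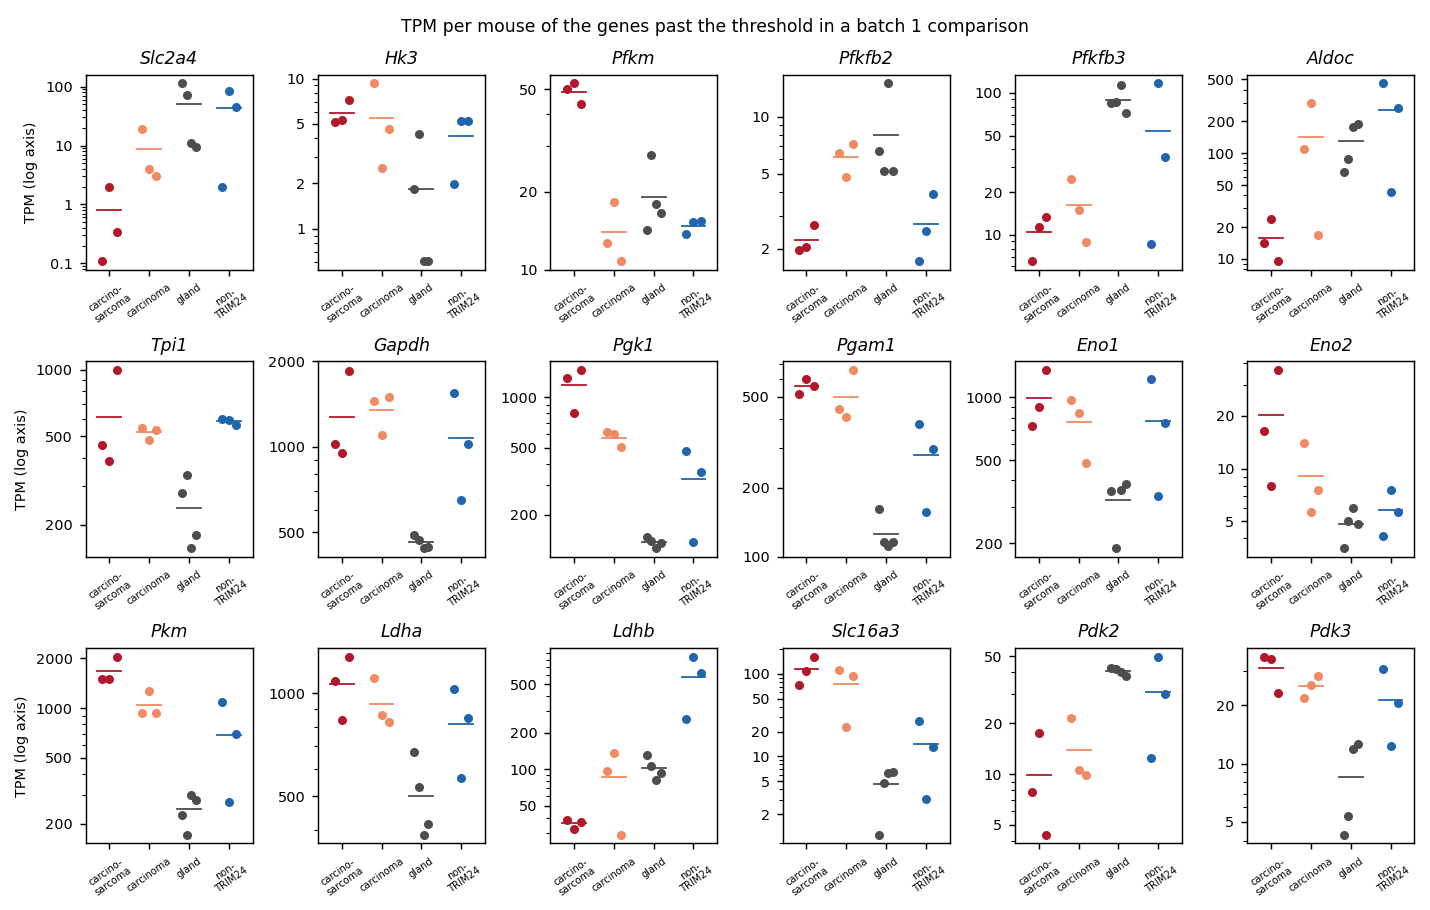
TPM on a log axis of the 18 members past the threshold in at least 1 comparison within batch 1, with 1 point per mouse in 4 groups and a line at each group's mean TPM. The Trim24COE tumor and gland points of Pgk1, Pkm, Pgam1, Gapdh, Slc16a3, Pfkfb3 and Pdk2 do not overlap, and the carcinosarcomas lie above every other mouse for Pfkm.

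For each step, an isozyme's share of the summed TPM of its family was taken in each library, over all cells of the tissue. An exact permutation test over mice compared 9 such shares. Of the 9, 4 differed between the 6 tumors and the 4 glands, each with an adjusted p of 0.0214. At 0.00952, their unadjusted p was the smallest that 6 against 4 mice can give. Ldha made up 96.6%, 96.3% and 97.2% of lactate dehydrogenase in the carcinosarcomas, 92%, 86.5% and 96.6% in the carcinomas and 83.7%, 83.2%, 82.6% and 81.7% in the glands, with means of 94.2% ± 4.23 (SD, n = 6) and 82.8% ± 0.894 (SD, n = 4). Slc16a3 made up 70.5%, 82.5% and 78% of the MCT1 and MCT4 pair in carcinosarcomas, 78.4%, 31.2% and 90.1% in carcinomas and 5.23%, 28%, 11.8% and 14.4% in glands, so even tumor 273_5 lay above gland 392. Slc2a1 made up 93.1%, 94.8% and 97.9% of its 3 carriers in carcinosarcomas, 86.8%, 92.9% and 95.8% in carcinomas and 10.8%, 18%, 83.3% and 84.6% in glands, and the lowest tumor lay just above the highest gland. In the glands at 10.8% and 18%, Slc2a4 held 87.6% and 79.3%, and the adipocyte marker sums were 25493 and 38048 TPM. For those at 83.3% and 84.6%, the adipocyte sums were 1763 and 1953 TPM. The Slc2a1 level itself did not pass (adjusted p = 0.0579, limma), and the part of adipocyte RNA in its share was not tested. Pfkfb3 fell from a mean of 76.6% ± 13.1 (SD, n = 4) in glands to 41.5% ± 11.9 (SD, n = 6) in tumors. Pfkfb4 made up 34.1% ± 12.2 (SD, n = 6) in tumors and 3.3% ± 2.11 (SD, n = 4) in glands, but its share was not among the 9 and was picked out after the values were seen. The same holds for Pdk3, whose share of the 4 kinases was 38.5% ± 9.96 (SD, n = 6) in tumors and 3.96% ± 1.62 (SD, n = 4) in glands.

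The other 5 shares did not pass. The difference between tumors and glands was -34.2 percentage points for Pdk4 (adjusted p = 0.1, exact permutation test), -6.64 for Pfkp (0.1), 11.1 for Aldoa (0.11), -7.92 for Hk2 (0.654) and 0.0537 for Eno1 (0.886). Written as a log2 ratio with 1 TPM added, Ldha over Ldhb was 4.25 ± 0.95 (SD, n = 6) in tumors and 2.26 ± 0.09 (SD, n = 4) in glands, a difference of 1.99 (exact permutation test, two-sided, p = 0.00952). Slc16a3 over Slc16a1 was 1.50 ± 1.42 in tumors and -2.41 ± 0.90 in glands, a difference of 3.92 (exact permutation test, p = 0.00952). Between carcinosarcomas and carcinomas, 3 against 3 mice cannot give a p below 0.1 in an exact permutation test, and the lowest of the 9 shares was at 0.3.

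**Figure D4:**
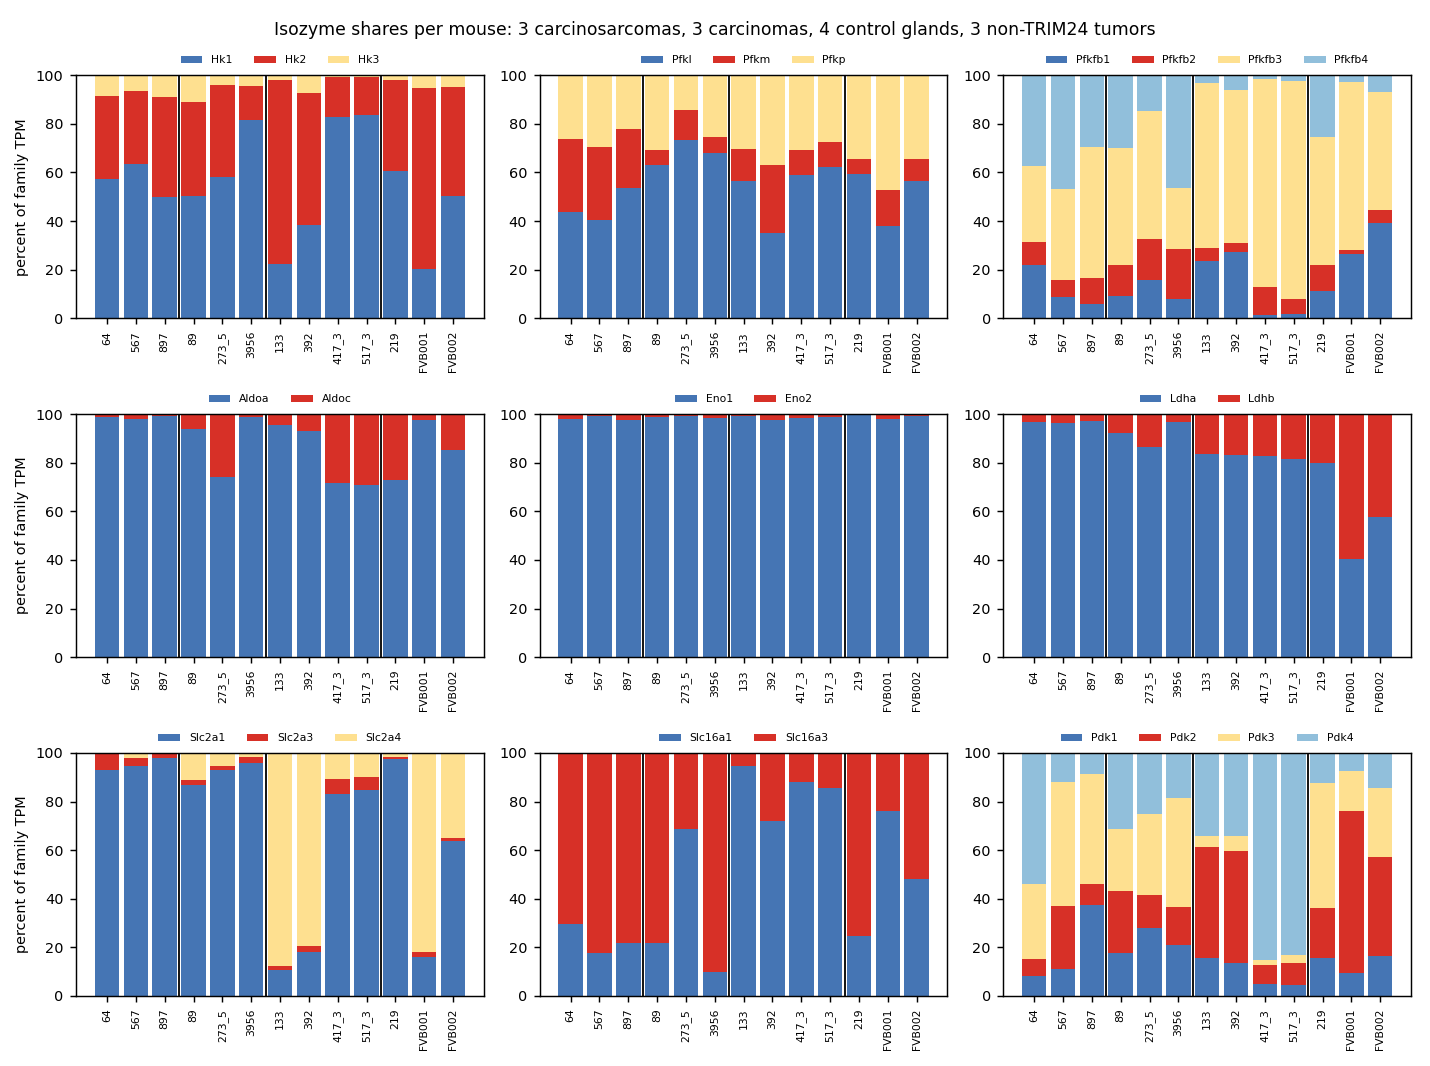
Share of each isozyme in the summed TPM of its family, in percent, as stacked bars for each of the 13 mice, with lines between the 4 groups and 1 panel for each of 9 families. Ldha takes 86.5% to 97.2% in Trim24COE tumors, 81.7% to 83.7% in glands and 40.3% in non-TRIM24 tumor FVB001, and Slc2a4 takes most of its panel in glands 133 and 392 and in FVB001.

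Each tumor class was then set against the same 4 glands, so the values of the classes share their controls. Between carcinosarcomas and glands, 10 members were called higher and 6 lower, with 9.83% and 13.1% of 15287 genes called in these directions. Between carcinomas and glands, 5 were called higher and 2 lower, with 1.58% and 1.92% of 15479 genes called. In every comparison of Trim24COE tumors with the glands, pooled or by class, Gapdh, Pgk1, Pgam1, Pkm and Slc16a3 were called higher, and Pfkfb3 and Pdk2 lower. Pgk1 was at a log2 difference of 3.06, SE 0.26, adjusted p = 0.000828 in carcinosarcomas and 2.06, SE 0.21, adjusted p = 0.00905 in carcinomas. Pkm was at 2.79, SE 0.28, adjusted p = 0.00115 and 2.11, SE 0.28, adjusted p = 0.0154, and Slc16a3 at 4.43, SE 0.50, adjusted p = 0.00162 and 3.64, SE 0.66, adjusted p = 0.0287, in the same order. In the carcinomas, the calls of Gapdh, Pgam1, Pkm, Slc16a3, Pfkfb3 and Pdk2 each ended without mouse 3956, with adjusted p from 0.0503 to 0.121 over the mice whose omission ended a call, and of the 7 calls only that of Pgk1 held in 17 of 17 alternatives.

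A further 9 members passed between carcinosarcomas and glands but not between carcinomas and glands, a contrast that is tested only by setting the classes against each other. Of these, Pfkm (1.35, SE 0.28, adjusted p = 0.0125), Eno1 (1.62, SE 0.34, adjusted p = 0.0145), Eno2 (1.64, SE 0.47, adjusted p = 0.0393), Ldha (1.10, SE 0.29, adjusted p = 0.031) and Pdk3 (1.85, SE 0.41, adjusted p = 0.0165) were higher. Aldoc (-2.92, SE 0.46, adjusted p = 0.00485), Ldhb (-1.48, SE 0.24, adjusted p = 0.00516), Slc2a4 (-4.28, SE 0.90, adjusted p = 0.0139) and Pfkfb2 (-1.36, SE 0.39, adjusted p = 0.0388) were lower. Aldoc and Ldhb held their calls in all 17 alternatives. The Eno2 call ended without mouse 64, 897 or any gland (adjusted p 0.0566 to 0.124), the Ldha call without any mouse but 133 (0.0521 to 0.117), and the Pfkfb2 call without 64, 567, 897, 133 or 517_3 (0.0522 to 0.142). The Ldha call also ended under quantile normalization (0.93, adjusted p = 0.0665) and trimmed mean scaling (1.11, adjusted p = 0.0699), and held in 8 of 17 alternatives, and the Pfkfb2 call ended under quantile normalization (-0.93, adjusted p = 0.0781). The calls of Slc2a4 without 64 or 897, Eno1 without 567 or 897, Pdk3 without 64 or 567 and Pfkm without 64 or 567 also ended, with adjusted p between 0.0501 and 0.0786. With the adipocyte score as covariate, Eno1 (1.23, adjusted p = 0.0565), Eno2 (1.33, 0.135) and Pdk3 (0.99, 0.0613, against 1.85 without the covariate) did not pass between carcinosarcomas and glands. Between carcinomas and glands, Slc16a3 was then at 3.20 (adjusted p = 0.053) against 3.64 without it, and Pdk2 at -1.41 (0.0564) against -1.56. Under quantile normalization 56.7% of all calls between carcinosarcomas and glands were higher, against 42.8% without it.

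Pfkm (ENSMUSG00000033065.13, chr15:98092589-98132451, plus strand) was the 1 member called between the classes. The muscle subunit of phosphofructokinase was at 49.9, 52.6 and 43.9 TPM in the carcinosarcomas, 12.7, 18.3 and 10.8 in the carcinomas, 14.3, 27.8, 17.9 and 16.6 in the glands and 13.7, 15.3 and 15.4 in the non-TRIM24 tumors. All 3 carcinosarcomas lay above all other mice. Carcinosarcomas exceeded carcinomas by 1.76 (SE 0.27, adjusted p = 0.0467), where 0.113% of 14193 genes were called higher and 0.585% lower, and without any mouse but 273_5 the adjusted p was 0.0517 to 0.269. Pfkm made up 29.9%, 30% and 24.4% of the phosphofructokinase subunits in carcinosarcomas and 5.93%, 12.1% and 6.48% in carcinomas. The summed TPM of 7 skeletal muscle markers was 32.3, 883 and 71.6 in the carcinosarcomas and 250, 21.7 and 268 in the carcinomas, and tumor 567 had the highest muscle sum and the highest Pfkm of the tumors. With the muscle score as covariate, an alternative chosen after the data were seen, the Pfkm difference was 1.78 (adjusted p = 0.08), and with the adipocyte score it was 1.90 (adjusted p = 0.313). With the adipocyte score, 0 of 14193 genes were called between the classes. The sum of 5 fibroblast markers was 1675 to 5657 in carcinosarcomas and 178 to 1851 in carcinomas. The sum of 6 mammary epithelium markers was 332 to 1393 in carcinosarcomas and 2194 to 5786 in carcinomas, without overlap. The part of either sum in the Pfkm difference, or in the other differences between the classes, was not tested.

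The remaining 33 members did not pass between the classes, and 7 members in all (20.6%) had an unadjusted p below 0.05, against 15% of all genes tested. Pgk1 was higher in every carcinosarcoma than in any carcinoma (log2 difference 1.00, SE 0.29, adjusted p = 0.215), as was Pkm (log2 difference 0.68, SE 0.26, adjusted p = 0.302). Pfkl was lower in every carcinosarcoma than in any carcinoma, at 73, 70.8 and 96.4 against 135, 111 and 113 TPM (log2 difference -0.58, SE 0.23, adjusted p = 0.309). Pfkfb2 was at 1.97, 2.04 and 2.66 against 6.45, 4.78 and 7.19 (log2 difference -1.14, SE 0.28, adjusted p = 0.169). Slc2a4 was at 0.11, 1.98 and 0.34 against 19.4, 4.07 and 3.02 TPM, also without overlap (log2 difference -2.18, SE 0.69, adjusted p = 0.234). The share of all genes without overlap between the classes was not counted. Aldoc was at 14.2, 23.8 and 9.57 against 109, 298 and 16.8 TPM (log2 difference -2.40, SE 0.96, adjusted p = 0.315) and Ldhb at 38.6, 32 and 37 against 96.4, 135 and 29 (adjusted p = 0.428). Carcinoma 3956 lay among the carcinosarcomas for Aldoc and below all of them for Ldhb, and without it Aldoc (-3.51, adjusted p = 0.0369) and Ldhb (-1.65, adjusted p = 0.0432) were called and Pfkm was not.

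**Figure D5:**
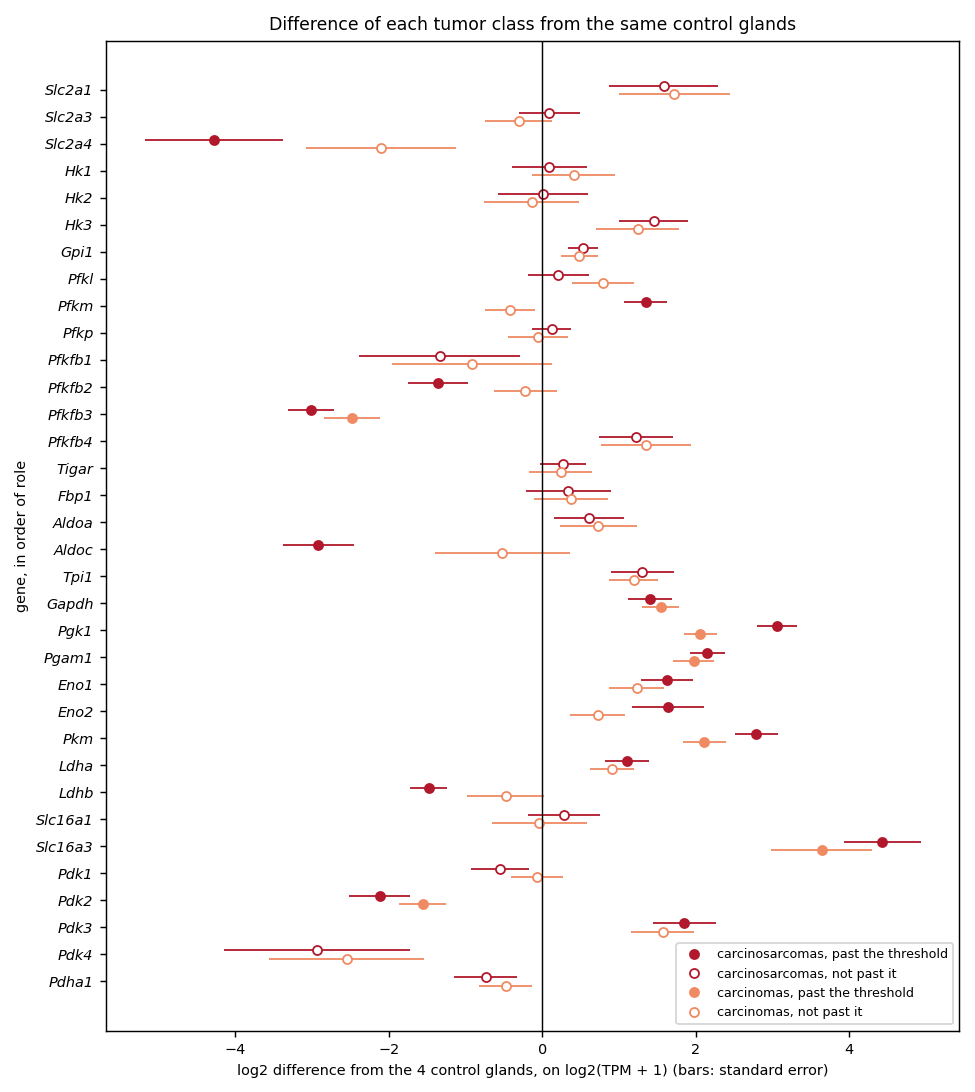
Fitted log2 difference of each member from the 4 control glands, which both comparisons share, in carcinosarcomas (dark red) and carcinomas (orange), with bars of 1 standard error and filled points for members past the threshold. Pfkm lies above 0 in carcinosarcomas and below 0 in carcinomas, and Slc16a3 lies farthest to the right in both.

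The non-TRIM24 tumors could be compared only across batches, which the 2 repeated mice link. Between the libraries of one mouse the median log2 ratio of the members was 0.06 for tumor 3956 and 0.13 for gland 133, and no member differed by a log2 ratio of 1 or more. With the batch as a term, 0 of 34 members were called between non-TRIM24 tumors and glands, with 0.203% of 16775 genes called higher and 0.507% lower. At an unadjusted p below 0.05 there were 9 members (26.5%), against 19.3% of all genes. Gapdh (log2 difference 1.15, adjusted p = 0.121), Tpi1 (1.08, 0.145) and Gpi1 (0.40, 0.28) lay above every gland in all 3 tumors without passing. Ldhb, given below, did so too. Pfkfb2, Slc16a1, Pdk1, Pdk4 and Pdha1 lay below every gland in all 3, also without passing. These orderings use values not adjusted for batch, and the share of all genes without overlap in this comparison was not counted. The members made up 0.938%, 0.652% and 0.808% of all TPM, against 0.393% to 0.503% in the glands of batch 1 and 0.59% in the repeat of gland 133. For other members the 3 tumors were not alike. Pkm was at 1087, 270.3 and 697 TPM in 219, FVB001 and FVB002, Pgk1 at 477, 137 and 361 and Slc16a3 at 26.8, 3.03 and 13.2. Tumor 219 lay within or near the range of the Trim24COE carcinomas for these genes, and FVB001, which had the highest adipocyte sum of all mice and the highest sum of red cell markers (25217), lay within the range of the glands for all 3. Without FVB001, Pgk1 (1.54, adjusted p = 0.0428) and Pkm (1.60, adjusted p = 0.0324) passed.

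Ldhb ran the other way. It was at 259, 837 and 616 TPM in 219, FVB001 and FVB002, above every Trim24COE tumor and every gland, and Ldha at 1031, 565 and 845. Ldha therefore made up 79.9%, 40.3% and 57.8% of lactate dehydrogenase in these tumors, and FVB001 was the 1 mouse in which Ldhb exceeded Ldha. In the batch 2 library of gland 133 this share was 79.4%, close to that of tumor 219. Of all members, Ldhb differed most between the 2 libraries of that gland, with a log2 ratio of 0.70 of batch 2 to batch 1. The Ldhb difference from the glands was 1.82, SE 0.54, adjusted p = 0.123, and that of the carcinomas from the non-TRIM24 tumors -2.37, SE 0.57, adjusted p = 0.154. Its near copy Gm5514 was at 37.3, 285 and 171 TPM in these 3 tumors and at most at 29.5 in any other, and reads of the pair may be divided between them. Between carcinomas and non-TRIM24 tumors 0 members were called by limma, and 0% of all genes were called higher and 0.0298% lower. At an unadjusted p below 0.05 there were 6 members (17.6%), the same share as over all genes (17.6%).

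Between carcinosarcomas and non-TRIM24 tumors, 4 members were called higher and 1 lower, against 3.24% and 1.52% of all genes. Higher were Pfkm (1.82, SE 0.32, adjusted p = 0.0129), Pgk1 (2.04, SE 0.42, adjusted p = 0.0224), Pkm (1.76, SE 0.42, adjusted p = 0.0355) and Slc16a3 (3.27, SE 0.76, adjusted p = 0.0303), and lower was Ldhb (-3.33, SE 0.58, adjusted p = 0.0131). None of the 5 passed without tumor 64 or without FVB002, nor when the repeats entered as separate libraries. In that last setting, 8 of 16775 genes were called higher and 5 lower. Of all calls in this comparison 68.1% were higher, and 44.3% under trimmed mean scaling.

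A list of 41 other genes around the pathway, which take sugar into side branches, carry pyruvate or reverse glycolysis, was set beside the members. Of the 30 that could be tested between all tumors and glands, 1 was called higher and 1 lower, where 7.96% and 9.13% of all genes were called. The higher one was basigin (Bsg, 0.64, SE 0.19, adjusted p = 0.041), the chaperone that brings MCT1 and MCT4 to the membrane, at 719, 667 and 942 TPM in carcinosarcomas, 893, 852 and 759 in carcinomas and 423, 501, 542 and 606 in glands. The lower one was pyruvate carboxylase (Pcx, -3.30, SE 0.69, adjusted p = 0.00947), which feeds pyruvate to gluconeogenesis and lipogenesis, at 7.03, 5.29 and 2.13 TPM in carcinosarcomas, 25.6, 9.57 and 2.2 in carcinomas and 250.2, 80.5, 37.6 and 31.4 in glands. Pcx followed the adipocyte sum in being highest in glands 133 and 392, and the part of adipocyte RNA in its difference was not tested. Between carcinosarcomas and glands 1 of 30 was called higher, the pentose phosphate lactonase Pgls, and 3 lower, namely Pcx, the pyruvate and lactate carrier Slc16a7 and the pentose phosphate isomerase Rpia, where 9.83% and 13.1% of all genes were called. Between carcinomas and glands 0 of 31 passed (limma, 6 at an unadjusted p below 0.05), with 1.58% and 1.92% of all genes called. Between the classes 0 of 29 passed (3 at an unadjusted p below 0.05), with 0.113% and 0.585% of all genes called.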

How the data were processed

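RNA-seq of mammary tumors and glands was analysed in 15 libraries of 13 mice. Per the study's methods, the authors trimmed reads, aligned them to GRCm38 with STAR and estimated gene abundance with RSEM, and the submitters' processing notes also name FastQC, TopHat, Cufflinks, DESeq and edgeR. The deposited values are TPM, whose sum is the same for each library, so sequencing depth and the counting error behind a value are unknown. TPM also depend on what the most abundant genes take up. Groups and tumor classes were taken from the labels.

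A gene had to reach 1 TPM in a number of libraries equal to the mice of the smaller group. Such genes were tested with limma 3.58.1 in R 4.3.3 on log2(TPM + 1), with a variance trend, two-sided, and Benjamini-Hochberg adjustment over all genes tested at a threshold of 0.05. Fold changes are on this scale and understate those of low genes. For contrasts inside batch 1 each mouse entered with its first library. For those involving non-TRIM24 tumors all 15 libraries entered together with a batch term and an estimated correlation between libraries of one mouse (0.951). Shares and ratios were compared over mice by exact permutation tests, with adjustment over the 9 shares. The p-values measure the spread between mice. The fits were tested on simulated data.

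Coordinates and transcripts are from GENCODE M21 and promoters from RefSeq, both on GRCm38, and near copies were found with blastn. All 34 members are named. The members, the lists and the tests were chosen with earlier results of these data known. Alternatives changed the pseudocount, filter, scaling, samples in the fit, use of repeats and batch term, added an adipocyte covariate, or left out each mouse. Summing near copies and a skeletal muscle covariate were chosen after seeing the data. Isoforms and protein sequences were not analysed here.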

Additional observations from a re-analysis of the deposited data

Results flagged for a closer look

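In 10 of 68 groups of member TPM checked, the highest or lowest mouse stood apart from the rest by Dixon's criterion at the 95% level. For independent samples from a normal population, chance alone exceeds it in about 1 of 20 groups. The groups here share mice, and the tumor groups pool both classes, so the 10 cannot be read against that rate. Among the 6 Trim24COE tumors, Slc2a4 was at 19.4 TPM in tumor 89, against 0.11 to 4.07 in the other 5. Aldoc was at 298 TPM in tumor 273_5, against 9.57 to 109, and the same tumor had the lowest Gpi1, at 268 against 339 to 374. Hk1 was at 86.7 TPM in tumor 3956, against 34.5 to 51.2. Tumor 897 had the highest Tpi1, at 993 against 389 to 547, and the highest Eno2, at 36.3 against 5.68 to 16.3. Among the 4 glands, Pfkfb2 was at 14.9 TPM in gland 417_3, against 5.17 to 6.6, and Pgam1 at 162 in gland 133, against 111 to 116. Gland 392 had the highest Fbp1, at 2.73 TPM against 0.14 to 0.28, and the lowest Eno1, at 191 against 355 to 387. The Eno1 value of gland 392 rose to 284.5 with near copies summed and was still the lowest gland.

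Pfkm was marked because its difference between tumor classes was itself tested and passed, at 1.76 on the log2 scale, higher in 3 of 3 carcinosarcomas than in any carcinoma.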

How the results depend on the processing

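The number of members called between all Trim24COE tumors and glands was 13 and stayed between 11 and 18 when a mouse was left out. Leaving out a mouse gave 10 to 17 between carcinosarcomas and glands (16 with all mice), 1 to 6 between carcinomas and glands (7), 0 to 2 between the classes (1), 0 to 2 between non-TRIM24 tumors and glands (0), 0 to 0 between carcinomas and non-TRIM24 tumors (0), and 0 to 9 between carcinosarcomas and non-TRIM24 tumors (5). The lowest counts came without tumor 64 (10 of 16), without tumor 3956 (1 of 7) and without tumor 64 or FVB002 (0 of 5), the highest of the last comparison without tumor 219 (9), and glands 417_3 and 517_3 each left 2 of 7. Without the filter on low values, where more genes share the adjustment, 9 members were called between carcinosarcomas and glands, 1 between carcinomas and glands, 0 between the classes and 2 between carcinosarcomas and non-TRIM24 tumors. In the same order, 727, 24, 0 and 156 of all genes were then called higher and 896, 22, 0 and 52 lower. Between the classes 0 were also called with a pseudocount of 0.1, under quantile normalization, and with the adipocyte or the skeletal muscle covariate. Of all 14193 genes, 0 were called with the adipocyte covariate, and 12 higher and 72 lower with that pseudocount. Under quantile normalization 24 were called higher and 81 lower, and with the muscle covariate 10 and 71. Without the batch term 9 were called between non-TRIM24 tumors and glands (6 higher, 3 lower). Of all 16544 genes then tested, 460 were called higher and 1870 lower. Between carcinomas and non-TRIM24 tumors 1 was then called lower, Ldhb, where 1312 of all genes were called higher and 188 lower. With repeats as separate libraries 0 were called between carcinosarcomas and non-TRIM24 tumors, where 8 of all 16775 genes were called higher and 5 lower. Counts over all genes with a mouse left out are not given here, and the cause of these changes was not tested.

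Of the isozyme shares, 4 passed, and 0 to 5 did without 1 mouse: each gland left out gave 0, with the same 4 shares at an adjusted p of 0.0536 each. Without a gland, the smallest p that the exact permutation test can give is larger. If 4 of 9 shares sit at that smallest p, they cannot pass the adjustment. These losses therefore follow from the number of mice and do not measure how stable the shares are. The Ldha over Ldhb difference stayed between 1.82 and 2.30 for tumors against glands and between 0.70 and 1.75 between the classes. That of Slc16a3 over Slc16a1 stayed between 3.60 and 4.44 for tumors against glands and ran from -0.71 to 1.38 between the classes, turning to -0.71 without tumor 273_5. Over all alternatives, 821 values kept direction and side of the threshold, 145 kept only the direction, 30 moved and 1 reversed. The values of single genes in this tally are of members that passed in the main fit. Members that passed only under an alternative, such as Slc2a1, Pfkfb4 and Pdk4 between tumors and glands, are not in it. The median log2 difference of all genes shifted with the scaling from -0.12 to 0.04 between carcinosarcomas and glands, from -0.10 to 0.05 between the classes and from -0.27 to -0.03 between non-TRIM24 tumors and glands. It also shifted from 0.27 to -0.03 between carcinomas and non-TRIM24 tumors and from 0.13 to -0.09 between carcinosarcomas and non-TRIM24 tumors. Of all calls between non-TRIM24 tumors and glands 28.6% were higher, 45.6% under trimmed mean scaling and 39.8% under quantile normalization. No paired analysis was possible because the groups compared share no replicate numbers.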

Other observations

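Libraries of one mouse sequenced in both batches were close for the members. In tumor 3956 the log2 ratio of batch 2 to batch 1 ran from -0.63 for Pfkfb2 to 0.50 for Gpi1, and 30 of 34 members lay within 0.5. In gland 133 it ran from -0.31 for Pdk4 to 0.70 for Ldhb, and 33 of 34 lay within 0.5. In tumor 219, which had the lowest adipocyte sum of the non-TRIM24 tumors, the members made up 0.938% of all TPM, and in FVB001 and FVB002 0.652% and 0.808%.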
